A study of Mus musculus with 16 samples.

Results

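The genes described here make cholesterol from acetyl-CoA or sense how much of it a cell holds. They were taken by name, from a list chosen with earlier results of these data known. Out of 49671 gene rows of the count table, 27 carry the Ensembl identifiers of the listed symbols. All 27 passed the filter on low counts. Of them 20 encode enzymes, 5 encode the sterol sensor and its transcription factors (Srebf1, Srebf2, Scap, Insig1, Insig2), and Stard4 and Mylip act in sterol transport and uptake. They were measured by bulk RNA sequencing of the hippocampus in female mice aged 8 months, in 16 libraries, 4 in each of 4 groups. WT mice have neither modification, p16KO mice lack p16 (the cell cycle inhibitor encoded by Cdkn2a), PS19 mice carry the PS19 tau transgene, and PS19_p16KO mice combine both. PS19 is a tauopathy model in which human tau with a disease mutation is expressed from the mouse prion protein promoter. The labels do not describe the p16 allele, and name neither a strain nor separate animals. The p-values then reflect only how far these samples spread, which may be technical.

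Cholesterol does not cross the blood-brain barrier in useful amounts, so the brain makes its own, with glia as main producers. Acetyl-CoA is built up through mevalonate to farnesyl diphosphate, which is joined to squalene, closed to lanosterol and trimmed to cholesterol. When membrane sterol is low, the sensor Scap carries the SREBP proteins, the products of Srebf1 and Srebf2, to the Golgi, where they are cut and released as transcription factors of these same genes. When sterol is high, Insig proteins hold Scap in the endoplasmic reticulum. Insig1 is itself a target of SREBP, so its transcript follows the pathway it restrains.

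Promoters of 3 members are shown because these genes carry the results below: Msmo1 and Insig1 passed the test, and Hmgcs1 is the member with the highest WT level per kilobase of exon. The sequences are RefSeq's on GRCm38.p6, 250 bases up to the transcription start, 5′ to 3′ on the gene's strand: chr13:119690101-119690350 (plus strand) for Hmgcs1, chr5:28071162-28071411 (plus strand) for Insig1 and chr8:64733579-64733828 (minus strand) for Msmo1. Capitals mark, on either strand, the core of a sterol regulatory element (TCACNCCAC), the CCAAT box bound by NF-Y and the GGGCGG box bound by Sp1, none of which overlap in the letters shown.
Hmgcs1: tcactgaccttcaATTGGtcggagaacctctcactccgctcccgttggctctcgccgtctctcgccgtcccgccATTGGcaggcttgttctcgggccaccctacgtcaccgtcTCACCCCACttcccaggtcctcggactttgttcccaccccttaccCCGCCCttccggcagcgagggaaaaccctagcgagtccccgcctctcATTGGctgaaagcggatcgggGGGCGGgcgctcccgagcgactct
Insig1: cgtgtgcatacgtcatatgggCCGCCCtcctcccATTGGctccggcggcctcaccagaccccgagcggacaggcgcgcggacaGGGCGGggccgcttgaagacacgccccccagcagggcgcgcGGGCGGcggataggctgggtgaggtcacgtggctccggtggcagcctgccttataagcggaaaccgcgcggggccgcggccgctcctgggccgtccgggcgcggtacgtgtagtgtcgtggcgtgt
Msmo1: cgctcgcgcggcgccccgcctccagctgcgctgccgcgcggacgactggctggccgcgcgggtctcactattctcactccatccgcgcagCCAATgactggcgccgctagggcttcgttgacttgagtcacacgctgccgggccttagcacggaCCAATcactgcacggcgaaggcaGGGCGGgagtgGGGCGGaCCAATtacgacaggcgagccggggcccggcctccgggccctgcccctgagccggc
Windows of 300 bases, 250 before and 50 from the start on, were found for 23 of the 27 members, and Fdps, Fdft1, Sqle and Stard4 had none. Some members have several starts, which gave 31 windows. CCAAT was in 22 of these (71.0%), against 37.4% of all 32851 windows of that length, and GGGCGG in 25 (80.6%), against 35.7%. The sterol element core was found in 1 of the 31 (3.23%), that of Hmgcs1 at position -137 from the start, against 1.24% of all windows. All windows include those of genes that were not tested here, while every member was tested. These shares therefore do not set the members against genes of similar expression. Acat2 and Scap were the members with a window and no CCAAT, and Ggps1 and Pmvk those with no GGGCGG.

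Each library held 18485552 to 22311322 gene counts, and 16372 genes were tested. Levels are in CPM, counts relative to the library's total over the genes tested, after TMM scaling. Differences are log2 fold changes ± SE from edgeR's quasi-likelihood test. A gene counts as changed when its Benjamini-Hochberg adjusted p over all genes tested is under 0.05. Cdkn2a had 8 counts over the 4 WT libraries, 18 over PS19, 3 over p16KO and 2 over PS19_p16KO, too few to check the labels library by library, and the labels do not give the deleted part. Prnp, whose promoter drives the transgene, had 80717 and 85775 counts over WT and p16KO and 134824 and 144193 over PS19 and PS19_p16KO. The 6 choroid plexus markers, of a tissue that borders the hippocampus, summed to 849 CPM in WT library 1, 3371 CPM in p16KO library 4 and 5709 CPM in PS19_p16KO library 3, against at most 200.2 CPM elsewhere.

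Per kilobase of annotated exon, the WT order of levels ran from Hmgcs1 at 56.6 CPM per kilobase ± 3.76 (SD, n = 4), the enzyme that makes HMG-CoA, and Srebf2 at 38.1 ± 1.964, down to Tm7sf2 (2.54 ± 0.304), Lss (2.52 ± 0.0652) and Lbr (2.36 ± 0.258). Srebf2 stood above Srebf1 (13.1 ± 1.46), and Insig1 (21.4 ± 1.25) above Insig2 (17.3 ± 0.479), in each case by more than the spread. Per kilobase, Tm7sf2, Lss and Lbr did not differ beyond theirs, nor did Mvk (7.39 ± 0.558), Mylip (7.37 ± 0.555) and Fdps (7.16 ± 0.576). This order depends on the annotated exon length, which is 10787 bases for Lss, the longest of the 27. Before division by length, Lss was at 27.2 CPM ± 0.704, above Tm7sf2 (11.2 ± 1.34) and Lbr (11.3 ± 1.23). Hmgcs1 and Srebf2 were then at 260 ± 17.3 and 273 ± 14.1 CPM. Which exons are used in these libraries was not tested.

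**Figure D1:**
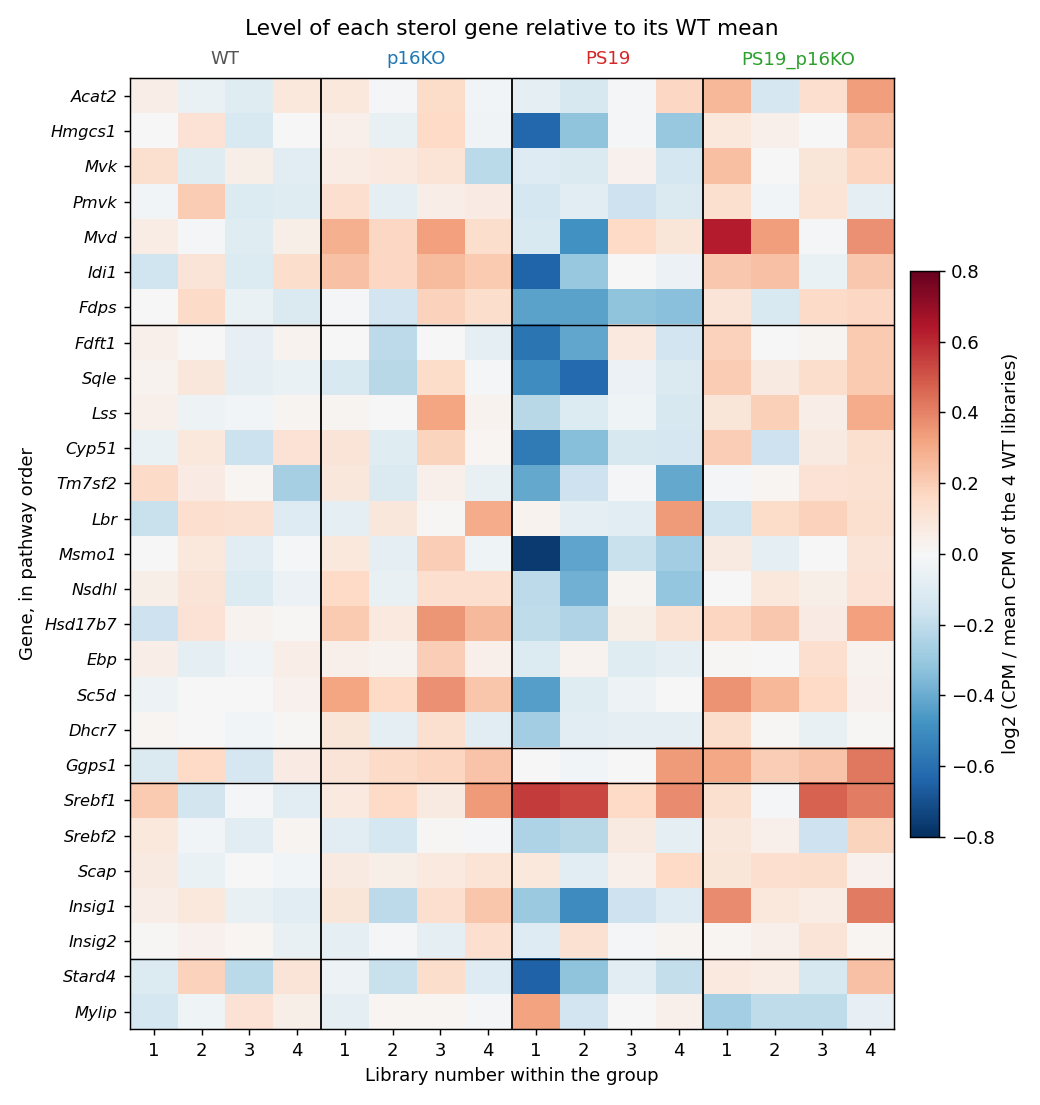
Level of each of the 27 members (rows, in pathway order) in each of the 16 libraries (columns), as log2 of CPM over the mean CPM of the 4 WT libraries, with blue below and red above that mean. Most enzyme rows are blue in PS19 libraries 1 and 2 and pale in PS19 library 3, and Srebf1 is red in all 4 PS19 libraries.

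The group means had one order for most of the pathway. PS19 had the lowest mean of the 4 groups in 18 of the 20 enzymes, the exceptions being Lbr and Ggps1, for which WT was lowest. PS19_p16KO had the highest mean in 12 enzymes and p16KO in the other 8. Summed over the 20 enzymes the level was 905 CPM ± 39.1 (SD, n = 4) in WT, 943 ± 60.4 in p16KO, 776 ± 96.3 in PS19 and 980 ± 49.1 in PS19_p16KO. By library the PS19 sums were 661, 737, 882 and 822 CPM, and the WT sums 903, 952, 856 and 909 CPM, so library 3 of PS19 lay within the WT range and the other 3 below it. The 4 sums of PS19_p16KO, 1011, 935, 942 and 1033 CPM, were all above those of PS19.

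To ask what the transgene does when p16 is intact, PS19 was compared with WT. Farnesyl diphosphate synthase and the first enzyme of the removal of the methyl groups at carbon 4 were lower: Fdps fell by 0.38 ± 0.08 and Msmo1 by 0.40 ± 0.09 on the log2 scale, to 76.96% and 76.0% of their WT means. These 2 of 27 members passed the test and 0 were higher, where over all genes 0.055% were called lower and 1.56% higher. Because the list was chosen with earlier results of these data known, such shares, here and below, are descriptions and not independent support. At an unadjusted p under 0.05 there were 10 lower and 1 higher. Of all 16372 genes 453 were lower and 1114 higher at that level, 9.57% in either direction. The members' median was -0.13, against -0.0051 over all genes tested, and 21 of 27 values were negative. In 4 members, Fdps, Msmo1, Dhcr7 and Insig1, every PS19 library was below every WT library, which held for 1.47% of all genes.

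In the steps up to farnesyl diphosphate, all 7 values were negative and 1 passed. Fdps (ENSMUSG00000059743, chromosome 3, 89093588 to 89101959 in GRCm38, minus strand) makes farnesyl diphosphate, the branch point to sterols, dolichol and prenylated proteins. Of its 4208 exon bases, 1124 are shared with the model Gm43738 on the same strand. Fdps stood at 30.1, 33.5, 29.0 and 27.9 CPM in the WT libraries and at 22.4, 22.4, 24.1 and 23.95 CPM in the PS19 libraries. The groups did not overlap and the PS19 values were close together (23.2 CPM ± 0.941, n = 4, against 30.1 ± 2.43 in WT; edgeR adjusted p = 0.0175). Hmgcs1 (ENSMUSG00000093930, chromosome 13, 119690379 to 119708260, plus strand) was at 260, 281, 239 and 260 CPM in WT and at 168, 208, 259 and 211 CPM in PS19. Only library 3 of PS19 reached the WT range, and the difference of -0.30 ± 0.10 did not pass (edgeR adjusted p = 0.189). Idi1, which isomerises isopentenyl diphosphate, had -0.23 ± 0.11, and the enzymes between HMG-CoA and that step had smaller values: Mvk (mevalonate kinase) -0.08 ± 0.08, Pmvk (phosphomevalonate kinase) -0.13 ± 0.08 and Mvd (the decarboxylase) -0.07 ± 0.13. Acat2, the cytosolic thiolase that starts the route, was at -0.0082 ± 0.088.

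In the 12 genes from squalene to cholesterol, 11 values were negative and 1 passed. Msmo1 (ENSMUSG00000031604, chromosome 8, 64718139 to 64733792, minus strand) stood at 70.4, 74.6, 66.4 and 70.0 CPM in WT and at 41.4, 52.4, 62.1 and 57.9 CPM in PS19 (70.4 ± 3.35 against 53.5 ± 9.003, n = 4; edgeR adjusted p = 0.0332). The groups did not overlap, and library 1 of PS19 was the lowest. Sqle (ENSMUSG00000022351, chromosome 15, 59315077 to 59331192, plus strand), squalene epoxidase, was at 77.6, 81.1, 72.2 and 73.3 CPM in WT and at 53.8, 49.5, 73.5 and 70.3 CPM in PS19. Library 3 of PS19 lay within the WT values and library 4 just below them, and the difference of -0.30 ± 0.11 did not pass (edgeR adjusted p = 0.264). Fdft1 (squalene synthase) at -0.25 ± 0.10, Cyp51 (lanosterol demethylase) at -0.28 ± 0.10, Nsdhl (a decarboxylase that acts after Msmo1) at -0.21 ± 0.09 and Tm7sf2 at -0.24 ± 0.11 were of similar size. Lss (lanosterol synthase), Sc5d, Dhcr7, Hsd17b7 and Ebp lay between -0.13 and -0.06. Tm7sf2 and Lbr both encode a sterol 14-reductase, and Lbr, also a protein of the inner nuclear membrane, was at 0.06 ± 0.12. Of these genes Fdft1 shares 774 exon bases with Ctsb on the other strand, and Tm7sf2 shares 532 with Vps51 on the same strand. Lss, Cyp51 and Lbr share up to 381, 166 and 440 with another model.

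Among the sensing genes no member passed. Srebf1, whose product acts mostly on fatty acid genes, stood at 85.3, 66.5, 73.3 and 69.5 CPM in WT and at 108, 107, 82.4 and 95.7 CPM in PS19. It had the largest positive value among the members, 0.42 ± 0.11, with library 3 of PS19 below library 1 of WT (edgeR adjusted p = 0.0901). Srebf2, which acts mostly on cholesterol genes, was at -0.11 ± 0.07. Insig1 (ENSMUSG00000045294, chromosome 5, 28071363 to 28078662, plus strand) was at 68.8, 70.4, 63.7 and 62.4 CPM in WT and at 54.1, 46.8, 59.2 and 61.9 CPM in PS19. Its groups did not overlap, although 61.9 and 62.4 CPM lie side by side, and -0.26 ± 0.10 did not pass (edgeR adjusted p = 0.374). Insig2 was at 0.01 ± 0.06 and Scap at 0.05 ± 0.05. Stard4, which carries sterol between membranes, was at -0.30 ± 0.11, and Mylip, a ubiquitin ligase for lipoprotein receptors, at 0.06 ± 0.09. The branch enzyme Ggps1, which makes geranylgeranyl diphosphate, was at 0.09 ± 0.08.

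The number of calls moved with single libraries, while the differences kept their direction. With each of the 8 libraries left out in turn, the log2 fold change was -0.41 to -0.32 for Fdps and -0.48 to -0.30 for Msmo1, with edgeR adjusted p up to 0.0944 and 0.131. Without PS19 library 1, PS19 library 2 or WT library 2 there were 0 calls by edgeR, and there was 1, Fdps, without WT library 3 or 4. With all libraries limma-voom called 0 members and DESeq2 called 3. Without the 3 libraries rich in choroid plexus markers the 2 calls were Fdps and Srebf1. Without PS19 library 3 there were 6: Hmgcs1, Fdps, Fdft1, Sqle and Msmo1 lower and Srebf1 higher, while the calls over all genes went from 264 to 438.

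**Figure D2:**
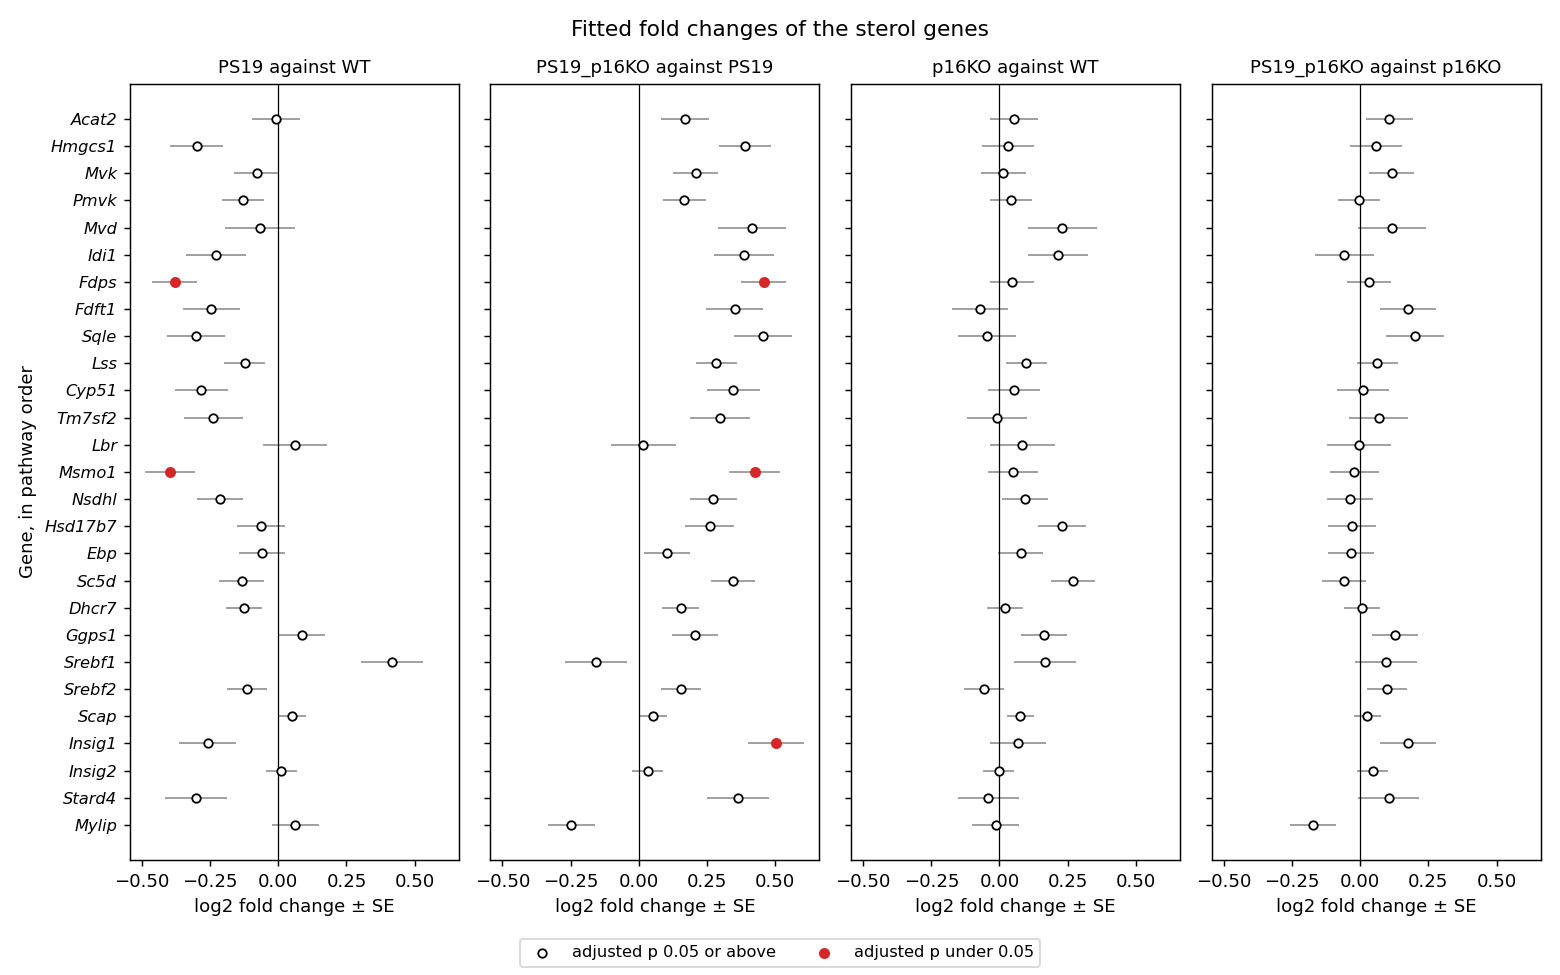
Fitted log2 fold change ± SE (horizontal axis) of each member (vertical axis, in pathway order) in 4 comparisons. Filled points, with an adjusted p under 0.05, are Fdps and Msmo1 in PS19 against WT and Fdps, Msmo1 and Insig1 in PS19_p16KO against PS19, while p16KO against WT and PS19_p16KO against p16KO have none.

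To ask what loss of p16 does in transgenic mice, PS19_p16KO was compared with PS19. It uses the same PS19 libraries as the comparison above, so the directions of these differences are tied to each other. Fdps, Msmo1 and Insig1 rose, by 0.46 ± 0.08, 0.42 ± 0.09 and 0.50 ± 0.10 on the log2 scale (edgeR adjusted p = 0.0109, 0.0356 and 0.0278). Over all genes 0.0489% were called higher and 0.776% lower, and 0 members were lower. At an unadjusted p under 0.05 there were 20 members higher and 1 lower. Of all 16372 genes 511 were higher and 895 lower at that level, 8.59% in either direction. All 20 enzymes had positive values, and the median of the 27 members was 0.27, against 0.0018 over all genes tested. In 9 members every PS19_p16KO library was above every PS19 library, which held for 1.56% of all genes.

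Among the early steps Fdps stood at 32.3, 27.7, 33.6 and 33.8 CPM in PS19_p16KO (31.8 ± 2.84, n = 4), each above the highest PS19 library. Hmgcs1 was at 275, 267, 259 and 305 CPM, and its lowest library lay just above PS19 library 3 (0.39 ± 0.10, edgeR adjusted p = 0.0750). Mvd and Idi1 had values near that, 0.42 ± 0.13 and 0.39 ± 0.11, with overlapping libraries. Mvk, Pmvk and Acat2 were between 0.17 and 0.21.

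Among the later steps Msmo1 was at 74.0, 67.1, 70.5 and 75.5 CPM in PS19_p16KO, close to WT and above every PS19 library. Sqle was at 87.4, 79.996, 83.7 and 87.7 CPM, all above PS19 (0.46 ± 0.11, edgeR adjusted p = 0.0557). Sc5d, the sterol desaturase, was at 78.7, 73.8, 68.6 and 62.8 CPM against 45.2, 57.5, 59.7 and 61.2 CPM in PS19 (0.34 ± 0.08, edgeR adjusted p = 0.0529). Lss had no overlap either (0.28 ± 0.08, edgeR adjusted p = 0.0913). These 3 genes and Hmgcs1 were the 4 members with an adjusted p from 0.05 to 0.1. Fdft1 (0.35 ± 0.10), Cyp51 (0.35 ± 0.10), Tm7sf2 (0.30 ± 0.11), Nsdhl (0.27 ± 0.09) and Hsd17b7 (0.26 ± 0.09) followed. Smaller values were those of the sterol reductase Dhcr7 (0.15 ± 0.07), the sterol isomerase Ebp (0.10 ± 0.08) and Lbr (0.02 ± 0.12).

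Of the sensing genes Insig1 stood at 86.3, 70.3, 69.2 and 88.6 CPM in PS19_p16KO (78.6 ± 10.3, n = 4, against 55.5 ± 6.62 in PS19), with libraries 1 and 4 above the 2 others. Insig2 was at 0.03 ± 0.06, and its 16 libraries lay between 55.9 and 65.9 CPM. Srebf2 was at 0.15 ± 0.07, Scap at 0.05 ± 0.05 and Srebf1 at -0.16 ± 0.11. Stard4 was at 0.36 ± 0.11. Mylip had the only negative value besides Srebf1, -0.25 ± 0.09, at 19.7, 20.7, 20.7 and 22.8 CPM against 29.8, 21.4, 23.9 and 24.55 CPM in PS19 (edgeR adjusted p = 0.277).

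Here too the number of calls moved with single libraries. With each of the 8 libraries left out in turn, the log2 fold change was 0.43 to 0.52 for Fdps, 0.32 to 0.51 for Msmo1 and 0.43 to 0.56 for Insig1, with edgeR adjusted p up to 0.0521, 0.146 and 0.114. The number was 0 without PS19 library 2, 1 without PS19 library 1 or PS19_p16KO library 1, 5 without PS19 library 4 and 10 without PS19 library 3 (where the calls over all genes went from 135 to 347), and it was 8 by DESeq2 and 0 when only these groups were fitted. Fdps was among the calls in all of these settings except those with 0 calls. Without the 3 libraries rich in choroid plexus markers the calls were Fdps and Insig1.

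**Figure D3:**
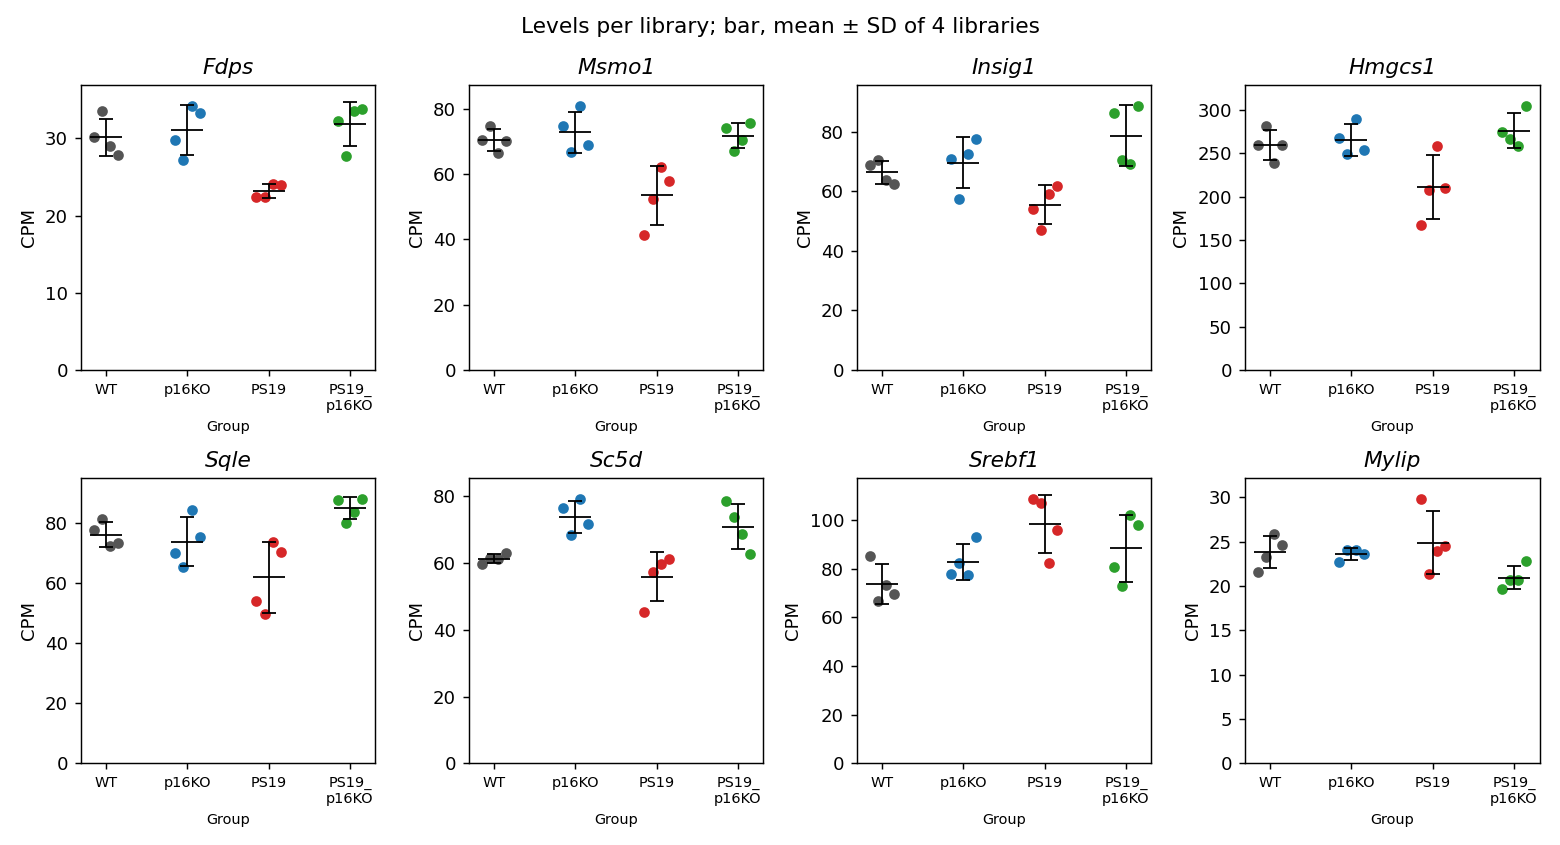
CPM per library (vertical axis, from 0) of 8 members in the 4 groups, with the mean ± SD of 4 libraries. Fdps lies between 22.4 and 24.1 CPM in the 4 PS19 libraries, below all other libraries, and Srebf1 has its highest mean in PS19 (98.3 CPM).

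Without the transgene, loss of p16 gave no call among the members. In p16KO against WT edgeR's test called 0 of 27 members and 0% of all genes. DESeq2 and limma-voom also called 0 members, and 18 and 11 of all genes. At an unadjusted p under 0.05 there were 2, against 3.99% of all genes: Sc5d at 0.27 ± 0.08 and Hsd17b7, a 3-ketosteroid reductase, at 0.23 ± 0.09. Sc5d stood at 76.5, 68.4, 79.1 and 71.7 CPM in p16KO and at 59.7, 61.5, 61.4 and 62.9 CPM in WT, without overlap (edgeR adjusted p = 0.774). Mvd and Idi1 were the other members without overlap, which held for 1.61% of all genes in this direction. The members' median was 0.05.

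The transgene effect in mice without p16 was read by setting PS19_p16KO beside p16KO, 8 libraries that do not enter PS19 against WT. By edgeR 0 of 27 members were called and 0 had an unadjusted p under 0.05, where 0.0183% and 3.65% of all genes did, and DESeq2 and limma-voom called 0. Fdps was at 0.03 ± 0.08, Msmo1 at -0.02 ± 0.09, Hmgcs1 at 0.06 ± 0.10, Insig1 at 0.18 ± 0.10 and Srebf1 at 0.10 ± 0.11. The range over the members was -0.17 (Mylip) to 0.20 (Sqle), and the median 0.05.

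The difference of these effects was tested as the interaction of both genotypes, and no member passed. By edgeR 0.00611% of all genes were called, and DESeq2 and limma-voom also called 0 members. At an unadjusted p under 0.05 there were 8 members, all positive: Sqle 0.50 ± 0.15, Insig1 0.43 ± 0.15, Fdft1 0.42 ± 0.15, Fdps 0.41 ± 0.12, Stard4 0.41 ± 0.16, Msmo1 0.38 ± 0.13, Hmgcs1 0.36 ± 0.14 and Cyp51 0.29 ± 0.14. Of all 16372 genes 209 were positive and 681 negative at that level, 5.44% in either direction. The smallest edgeR adjusted p among the members was 0.254, that of Fdps. Without PS19 library 3 the interaction called Hmgcs1, Fdft1 and Sqle, while the calls over all genes went from 1 of 16372 to 160 of 16584.

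Against WT, the group with both modifications had positive values in 26 of 27 members, with a median of 0.09. By edgeR 0 were called, against 0.0366% of all genes, and DESeq2 and limma-voom also called 0. At an unadjusted p under 0.05, 7 were higher and 1 lower. Of all 16372 genes 687 were higher and 647 lower at that level, 8.15% in either direction. Ggps1 had 0.29 ± 0.08, at 37.9, 35.1, 35.9 and 41.0 CPM against 28.3, 34.2, 27.9 and 32.1 CPM in WT, without overlap (edgeR adjusted p = 0.494). Lss was the other member without overlap, which held for 413 of 16372 genes in this direction. Mylip was the 1 member lower at an unadjusted p under 0.05, at -0.19 ± 0.09.

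Other genes of sterol and lipid metabolism fall in 5 lists. In PS19 against WT, 0 of 9 tested helpers of the pathway (electron donors and acetyl-CoA supply among them), 0 of 12 genes of SREBP cleavage and turnover and 0 of 13 genes of the isoprenoid branch passed, with medians of -0.03, 0.02 and 0.0050. Of 24 genes of cholesterol efflux, transport and turnover 2 were higher, with a median of 0.12, and of 14 fatty acid synthesis genes 1 was higher, with a median of 0.03. Over all genes 1.56% were called higher. Abca1, the transporter that exports cholesterol to lipoproteins, stood at 50.5, 48.2, 55.8 and 45.7 CPM in WT and at 99.3, 86.1, 59.4 and 78.4 CPM in PS19, so that it rose by 0.69 ± 0.13 (edgeR adjusted p = 0.0128). Clu, a secreted lipoprotein component, rose by 0.56 ± 0.12 and Gpam, which starts glycerolipid synthesis, by 0.52 ± 0.09. All 3 were without overlap, which held for 585 of 16372 genes in this direction. In their 2 lists it held for 5 of 24 and 3 of 14 genes. In each of the 3 called genes the highest PS19 library was library 1 and the lowest library 3. In PS19_p16KO against PS19, Abca1 fell by 0.73 ± 0.13, to 49.5, 45.3, 54.4 and 45.3 CPM, and Gpam fell by 0.43 ± 0.09 (edgeR adjusted p = 0.0175 and 0.0324). These were the only calls in the 5 lists there, where 0.776% of all genes were called lower. No gene of these lists was called in the 4 remaining comparisons. Srebf1, Mylip and Abca1 are known targets of the oxysterol receptor LXR. Of these, Abca1 alone passed in any comparison. In PS19 against WT Srebf1 was at 0.42 ± 0.11 and Mylip at 0.06 ± 0.09. The part of LXR was not tested.

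Bulk levels cannot tell fewer cells of a type from less RNA per cell, so cell type markers are given beside the results. The 10 microglial markers summed to 311 to 350 CPM in WT, 338 to 413 in p16KO, 433 to 884 in PS19 and 371 to 412 in PS19_p16KO, and 7 of 10 were higher in PS19 against WT and 4 of 10 lower in PS19_p16KO against PS19. The 8 astrocyte markers summed to 5352 to 5612 CPM in WT, 4870 to 5757 in p16KO, 6095 to 8588 in PS19 and 4650 to 5629 in PS19_p16KO, with Gfap the 1 of 8 higher in PS19 against WT, and 2 of 8 lower in PS19_p16KO against PS19. The 9 oligodendrocyte markers ran from 2458 to 3572 CPM in WT, 3213 to 3633 in p16KO, 3113 to 4211 in PS19 and 3149 to 4051 in PS19_p16KO, with 0 calls in those comparisons and 1 of 9 higher in PS19_p16KO against WT. The 8 neuronal markers ran from 7213 to 8194, 7212 to 7752, 6686 to 7437 and 6898 to 7680 CPM in the same order of groups, also with 0 calls. Over all genes 1.56% were called higher in PS19 against WT and 0.776% lower in PS19_p16KO against PS19. Within PS19 the microglial sums were 884, 681, 433 and 572 CPM in libraries 1 to 4, the reverse order of the enzyme sums of 661, 737, 882 and 822 CPM. The astrocyte sums, 8588, 8557, 6095 and 7130 CPM, had that reverse order too, and the oligodendrocyte and neuronal sums did not. Every marker of these 4 lists was detected in all 16 libraries. The part of cell makeup in the sterol results was not tested.

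**Figure D4:**
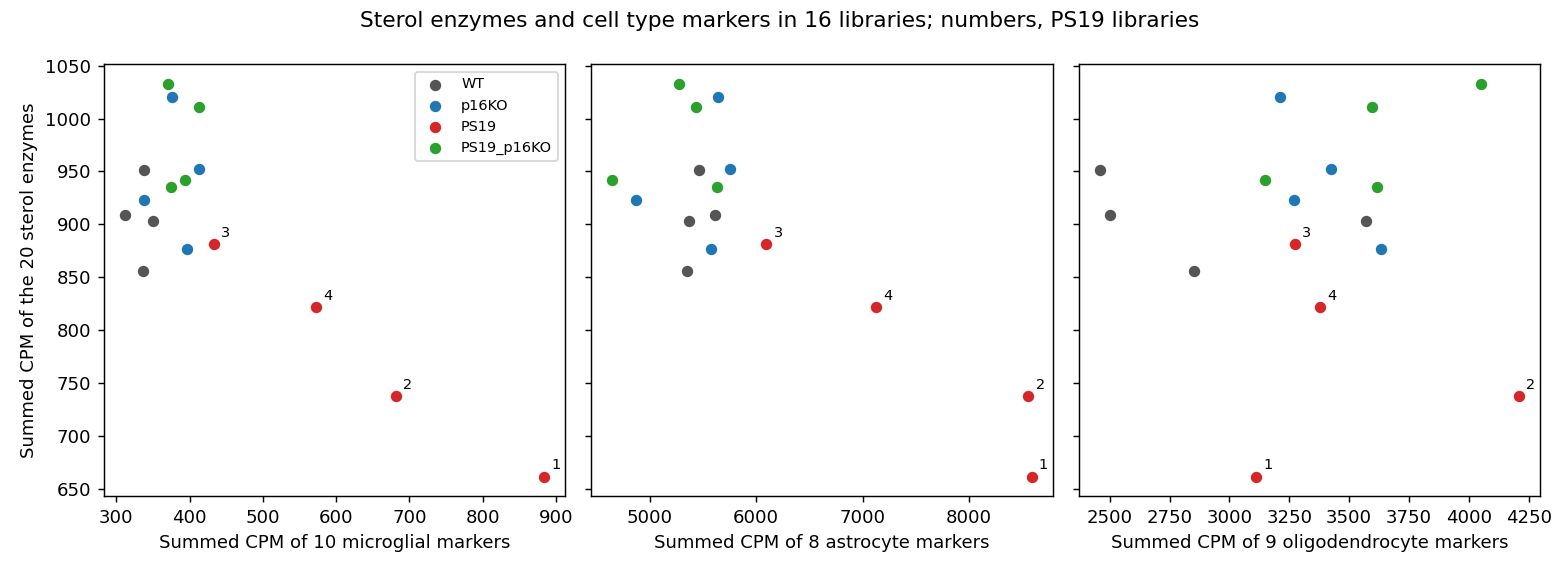
Summed CPM of the 20 sterol enzymes (vertical axis, not starting at 0) against summed CPM of microglial, astrocyte and oligodendrocyte markers (horizontal axes) in the 16 libraries, coloured by group, with PS19 libraries numbered. PS19 libraries 1 and 2 hold the highest microglial and astrocyte sums and the lowest enzyme sums, while PS19 library 3 lies beside the other groups.

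The PS19 libraries also differed most among themselves. Of the 20 enzymes, 17 were below every WT library in PS19 library 1, 15 in library 2, 6 in library 3 and 11 in library 4. Library 1 was the lowest of its group in 10 enzymes and library 3 the highest in 12. The SD was a median of 12.5% of the mean over the 27 members in PS19, against 6.497% in WT, 6.81% in p16KO and 7.51% in PS19_p16KO.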

How the data were processed

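Values are raw counts per gene and sample, without normalization, as the authors deposited them for 16 samples. GRCm38 and, without role or order, STAR 2.5.2b, Trimmomatic 0.36, Subread 1.5.2, featureCounts and DESeq2 are named per the submitters' processing notes. Neither the annotation release nor the counting strand is stated there, and reads of overlapping genes (11 of 27 members share exon bases with another model), antisense genes and near-identical copies may be shared. Symbols and positions come from GENCODE M21 on GRCm38 (49412 of 49671 rows matched).

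ERCC spike-in rows, 0.574% to 1.06% of a library, were left out. Genes were kept by filterByExpr (minimum count 10), scaled by TMM and tested with edgeR 4.0.16 in R 4.3.3, all 16 libraries in one robust quasi-likelihood fit with a mean per group. SEs were taken from the F statistic. The procedure was tested on simulated counts for PS19 against WT. It recovered 34% of genes changed 1.3-fold, 68% at 1.5-fold, 90% at 2-fold and 94% at 3-fold. A member without a call may therefore still differ by the smaller amounts. Replicates of a group differed by more than sampling noise (chi-square per degree of freedom 4.72 to 25.4). Members and lists were chosen with earlier results of these data known. All members are described, and other list genes are named where called. Tried besides were DESeq2 1.42.0, voom with quality weights (limma 3.58.1), RLE scaling, other filters, no robust dispersion, a replicate block, a term from the suffix of the library names, only the compared groups, each library left out, and, chosen after seeing the data, the 3 libraries rich in choroid plexus markers left out. Means under plain totals moved by less than 1 SD in all 108 cases.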

Additional observations from a re-analysis of the deposited data

Results flagged for a closer look

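In 112 groups of 4 values (27 members and the enzyme sum in 4 groups), 6 had a library set apart from the other 3 by a gap above Dixon's 95% critical value, where chance gives about 1 in 20. In PS19_p16KO library 3, one of the libraries rich in choroid plexus markers, Idi1 was at 17.9 CPM, below the 21.5 to 21.8 CPM of the others. In p16KO library 3, Lss was at 33.9 CPM against 27.3 to 27.8 CPM, and Ebp at 12.1 CPM against 10.8 CPM in each of the other 3. In p16KO library 2, Nsdhl was at 17.5 CPM, below 20.01 to 20.4 CPM. In PS19, Dhcr7 was at 27.03 CPM in library 1, below 30.8 to 31.2 CPM, and Ggps1 was at 38.8 CPM in library 4, above 30.2 to 30.6 CPM. The interaction test called no member.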

How the results depend on the processing

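The members' median kept its sign in all 115 alternative values over 6 comparisons, and no called member reversed: of 90 alternative values of the 5 calls, 54 passed the threshold and 36 did not. In PS19 against WT the number of members called, 2 as reported, was 0 by limma-voom, 1 with no filter on low counts, 1 when only the compared groups were fitted and 0 to 6 when single libraries were left out. There Fdps had an adjusted p of 0.00243 to 0.0944 over the alternatives and Msmo1 0.00378 to 0.135. In PS19_p16KO against PS19, 3 as reported, it was 8 by DESeq2, 0 when only the compared groups were fitted and 0 to 10 when single libraries were left out. Fdps ranged there from 0.000125 to 0.0708, Insig1 from 0.000504 to 0.136 and Msmo1 from 0.00193 to 0.212. The interaction called 0 members under all alternatives except without PS19 library 3, which gave a range of 0 to 3 when single libraries were left out. The cause of these moves was not tested, beyond the smaller number of libraries in the fits that leave some out. With the replicate number as a block, 1 member was called in PS19 against WT and 3 in PS19_p16KO against PS19. Same-numbered libraries had correlations of -0.39 to 0.22 over 24 pairs, 6 above 0.1, and 4 of 16 libraries correlated best with their own number. In WT and PS19 the same-numbered libraries share the first digit of the suffix of their library names. The labels do not say what the numbers stand for, and these correlations cannot settle whether they pair the samples. RLE scaling moved the median of all genes by at most 0.0063. Over all genes 264 were called in PS19 against WT (70 to 438 over the alternatives) and 135 in PS19_p16KO against PS19 (8 to 347). Every member had at least 155 counts in each library.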

Other observations

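Across the 27 members, comparisons that share no library were set side by side. The transgene effect with p16 intact and that without p16 had a Pearson correlation of -0.09 and a Spearman correlation of -0.10. The effect of p16 loss without the transgene and that with it had 0.06 (Pearson) and -0.0061 (Spearman). The members are not independent of each other and share libraries within a comparison, so these values are descriptions without a test.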
